A study of Homo sapiens with 36 samples.

Results

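The comparison described here is that of siRNA labelled as against Hic-5 with a non-silencing siRNA, in U2OS cells, a human osteosarcoma line, stably transfected with the glucocorticoid receptor alpha (GR). It takes 12 of the 36 libraries of the series, chosen by their labels: 6 of the condition siHic5siNS (Hic-5 siRNA together with the non-silencing one) and 6 of siNSsiNS (non-silencing siRNA alone). Each condition holds 3 libraries from cells given 100 nM dexamethasone (dex, a synthetic glucocorticoid) and 3 from cells given ethanol vehicle, in both cases for 8 h beginning 48 h after transfection. The receptor is carried as a transgene by every sample, controls included, and whether the line is a single clone is not stated. The labels give neither the sequence nor the number of the Hic-5 siRNAs, so loss of the target and any other action of the same siRNA cannot be told apart. Per the labels, replicates of a condition were collected on different days.

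Hic-5, encoded by TGFB1I1 (chromosome 16, 31472152 to 31477960 on GRCh38), is a LIM-domain protein of the paxillin family. Through its LIM domains and leucine-rich LD motifs it serves as an adaptor at focal adhesions, the sites where integrins couple the extracellular matrix to the actin cytoskeleton. It also shuttles to the nucleus, where it acts as a coregulator of steroid receptors, GR among them, and its gene is induced by TGF-beta. Libraries held 28.9 to 36.9 M counts over 15186 genes. The ribosomal transcript RNA28S5 took 0.43 to 6.04% of counts, with the high values of 6.04% in the dex and 3.44% in the vehicle library of siHic5siNS replicate 3 and 5.46% in the vehicle library of siNSsiNS replicate 3. Without these replicates 7661 and 7648 genes were called in the comparison that follows, against 8234 with them. Mesenchymal markers were abundant in all 12 libraries (VIM at 991 CPM or more, COL1A1 at 1763 CPM or more), whereas the epithelial, macrophage and endothelial markers EPCAM, CDH1, KRT5, CD68, PECAM1 and CDH5 stayed at or below 5.53 CPM.

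In cells given Hic-5 siRNA, genes of cell division were lower (22 of 22 tested mitotic genes and 20 of 24 DNA replication genes) and genes of the extracellular matrix mostly higher (17 of 29). HMOX1, the heme-degrading enzyme of oxidative stress, rose by 5.02 on the log2 scale, and fibronectin (FN1) by 2.69. The myosin light chain gene MYL4 fell by 7.58 and the integrin activator FERMT2 by 2.80. These stood among changes in more than every second gene tested. With the vehicle and dex counts of a replicate added together (3 sums against 3, edgeR's quasi-likelihood test, Benjamini-Hochberg adjusted p under 0.05), 8234 of 14835 tested genes were called, 55.5%. Of these 3927 were higher in siHic5siNS (26.5% of tested genes) and 4307 were lower (29.0%). A call with a change of at least 2-fold was made for 2979 genes (20.1%), 1357 upward (9.15%) and 1622 downward (10.9%). In 7204 genes (48.6%) the 6 siHic5siNS libraries did not overlap the 6 siNSsiNS libraries. The median gene changed by -0.03 log2. Counts within a gene group are therefore set against these shares. The median change also differed with the GC content of transcripts. It was -0.173 at 24.2 to 42.7% GC, 0.066 at 52.7 to 58.8% and 0.035 at 58.8 to 83.9%. The source of this trend was not tested. Within siHic5siNS, replicate 2 had the highest TGFB1I1 and HMOX1 levels and the lowest level of 20 of 22 mitotic and all 24 replication genes, in dex and in vehicle alike, and 7223 genes were called without it. As these are bulk libraries, fewer cells of one kind and less RNA per cell cannot be told apart. Levels are in CPM, the counts of a library scaled to a common total with upper-quartile factors, and each change is a log2 ratio of siHic5siNS over siNSsiNS with its standard error.

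TGFB1I1 itself stood at 5.46, 7.63 and 4.23 CPM in siHic5siNS dex libraries and 5.27, 11.2 and 4.74 CPM in siHic5siNS vehicle libraries, against 28.2, 30.4 and 28.3 CPM in siNSsiNS dex libraries and 27.9, 29.3 and 28.1 CPM in siNSsiNS vehicle libraries. Every siHic5siNS library lay below every siNSsiNS library, with replicate 2 the least lowered. The change was -2.17 ± 0.22, adjusted p = 1.76e-06. It was -2.55 without siHic5siNS replicate 2. NR3C1, the gene of GR (transgene and endogenous copies are not separated by the gene count), had 84.8 to 138 CPM (median 98.3) in siHic5siNS libraries, against 65.7 to 92.3 CPM (median 81.2) in siNSsiNS libraries. These ranges overlapped. The change of 0.42 ± 0.13, adjusted p = 0.0109 passed the test, but not without siNSsiNS replicate 3 (adjusted p = 0.0588). CHD9, a chromodomain remodeler and a target of other siRNAs in the series, had 47.5 to 78 CPM (median 70.0) in siHic5siNS libraries, against 78.1 to 97.4 CPM (median 91.3) in siNSsiNS libraries. The highest siHic5siNS library lay just under the lowest siNSsiNS library, with a change of -0.44 ± 0.16, adjusted p = 0.0288, and the call was lost without siHic5siNS replicate 2 (adjusted p = 0.143) or without siNSsiNS replicate 1 (adjusted p = 0.0987). SMARCA2, which encodes the remodeler ATPase BRM, had 33.4 to 51.3 CPM (median 37.5) in siHic5siNS libraries, against 27.2 to 42.8 CPM (median 32.9) in siNSsiNS libraries, and did not pass the test (0.22 ± 0.15, adjusted p = 0.241).

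**Figure D1:**
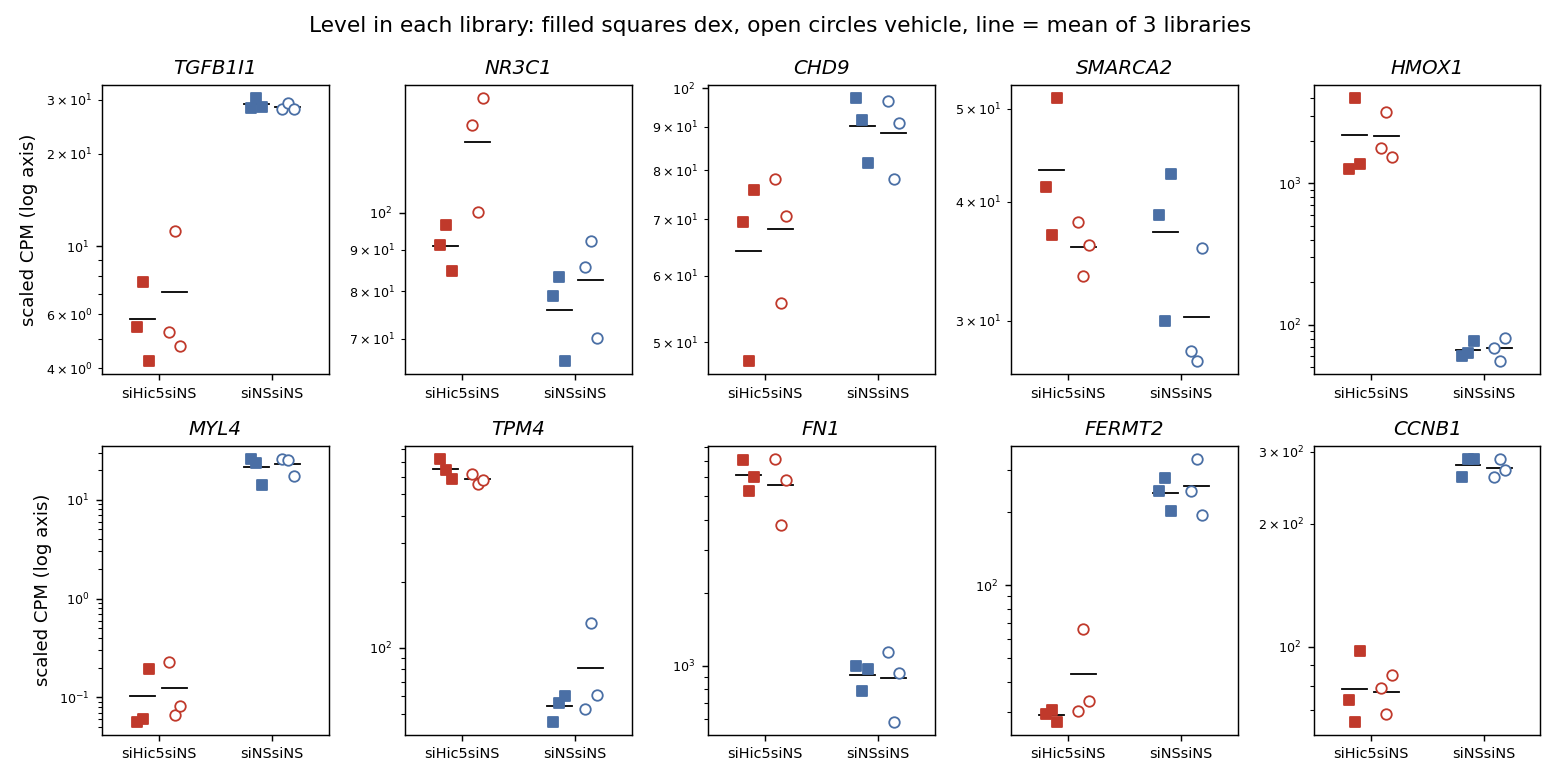
Scaled CPM (log axis) of 10 genes in the 12 libraries, with siHic5siNS at the left and siNSsiNS at the right of each panel. Filled squares are dex libraries, open circles vehicle libraries and black lines means of 3 libraries; TGFB1I1, HMOX1, MYL4, TPM4, FN1, FERMT2 and CCNB1 separate the conditions in dex and vehicle alike, while NR3C1 and SMARCA2 overlap.

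The largest rises included secreted and stress-related genes. HMOX1 (chromosome 22, 35381096 to 35394207), which encodes the heme-degrading enzyme heme oxygenase 1, stood at 1267, 3993 and 1361 CPM in siHic5siNS dex libraries and 1771, 3169 and 1533 CPM in siHic5siNS vehicle libraries, against 60.3, 63 and 76.5 CPM in siNSsiNS dex libraries and 68.3, 55.6 and 80.6 CPM in siNSsiNS vehicle libraries. The lowest siHic5siNS library was far above the highest siNSsiNS library, and both siHic5siNS replicate 2 libraries were the highest of their groups. HMOX1 changed by 5.02 ± 0.46, adjusted p = 7.11e-07. HTN1, the salivary peptide histatin 1, had 2694 counts over the 6 siHic5siNS libraries, against 3 counts over the 6 siNSsiNS libraries, a count ratio of 898 (95% exact interval 307 to 4360.0, counting error only). MGP, an extracellular inhibitor of calcification, had 9.35 to 18.1 CPM (median 10.7) in siHic5siNS libraries, against 0.0282 to 0.464 CPM (median 0.191) in siNSsiNS libraries. Its change was 5.99 ± 1.02, adjusted p = 1.52e-04, and 6.60 without siNSsiNS replicate 2. CHI3L1, a secreted chitinase-like glycoprotein, had 7.78 to 22.1 CPM (median 11.2) in siHic5siNS libraries, against 0.226 to 0.464 CPM (median 0.384) in siNSsiNS libraries and changed by 5.17 ± 0.82, adjusted p = 8.32e-05. MMP3, the matrix protease stromelysin 1, had 34.6 to 192 CPM (median 72.3) in siHic5siNS libraries, against 0.998 to 13.4 CPM (median 5.7) in siNSsiNS libraries; its change of 3.90 ± 0.90, adjusted p = 0.00166 was 3.17 without siHic5siNS replicate 2 and 4.77 without siNSsiNS replicate 3. APOD, a secreted lipocalin, rose by 3.41 ± 0.57, adjusted p = 1.19e-04. CD22, best known as a B-cell lectin, rose by 3.46 ± 0.59, adjusted p = 1.60e-04. Rises of 4.11 for ACRC, 3.44 for the sulfatase gene ARSG, 3.42 for the palmitoyltransferase gene ZDHHC22 and 3.39 for the long non-coding RNA gene BLACAT1 had standard errors of 0.23 to 0.38 and adjusted p of at most 2.91e-06. TRIML2, a tripartite-motif gene, rose by 3.43 ± 0.61, adjusted p = 2.14e-04, or 2.68 without siHic5siNS replicate 2. In each of these 12 genes every siHic5siNS library lay above every siNSsiNS library, as the choice of named genes required.

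The largest fall was that of MYL4 (chromosome 17, 47189433 to 47227650), an atrial and embryonic myosin light chain. It had 0.0569, 0.0613 and 0.195 CPM in siHic5siNS dex libraries and 0.226, 0.0672 and 0.0813 CPM in siHic5siNS vehicle libraries, against 25.9, 23.4 and 14.2 CPM in siNSsiNS dex libraries and 25.9, 25.5 and 17.5 CPM in siNSsiNS vehicle libraries. Over 6 libraries each this was 23 counts in siHic5siNS, against 4313 counts in siNSsiNS, a change of -7.58 ± 0.66, adjusted p = 4.50e-07. EDN2, the vasoactive peptide endothelin 2, had 2.11 to 5.03 CPM (median 3.24) in siHic5siNS libraries, against 53.3 to 63.1 CPM (median 59.7) in siNSsiNS libraries and changed by -4.05 ± 0.66, adjusted p = 9.85e-05. FOXS1, a forkhead transcription factor, had 1.49 to 4.37 CPM (median 2.22) in siHic5siNS libraries, against 22.9 to 39.3 CPM (median 27.9) in siNSsiNS libraries and changed by -3.62 ± 0.57, adjusted p = 8.00e-05. SEMA3G, a secreted class 3 semaphorin, fell by 3.97 on the log2 scale (SE 0.36, adjusted p = 5.66e-07). STYK1, a kinase-like membrane protein gene, changed by -3.77 ± 0.34, adjusted p = 6.17e-07. SLFN11, which blocks stressed replication forks, changed by -3.89 ± 0.72, adjusted p = 3.14e-04. CRYBA4, a beta-crystallin gene, had 0.778 to 2.00 CPM (median 1.1) in siHic5siNS libraries, against 6.74 to 50.0 CPM (median 15.1) in siNSsiNS libraries; its change of -4.23 ± 1.00, adjusted p = 0.00203 was -3.38 without siNSsiNS replicate 1. Changes of the acute-phase genes SAA1 (-3.64) and SAA2 (-4.74) and of the annexin genes ANXA8 (-4.44) and ANXA8L1 (-4.46) are uncertain within each pair, since the copies are near-identical and how shared reads were counted is not given in the sources used here. LINC00842, a non-coding gene, changed by -3.52 ± 0.37, adjusted p = 2.23e-06. These genes, again by the rule that chose them, did not overlap between the conditions.

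The gene groups nearest to Hic-5, LIM-domain adaptors and the focal adhesion core, were called at about the share of all genes (55.5%), in both directions. Among paxillin-family and LIM-domain adaptors 5 of 23 tested members rose and 7 fell (median log2 change 0.17); TGFB1I1 is one of those that fell. FHL1, a LIM-only protein abundant in muscle, had 62.1 to 70.1 CPM (median 67.3) in siHic5siNS libraries, against 182 to 216 CPM (median 200.4) in siNSsiNS libraries and fell without overlap (-1.58 ± 0.10, adjusted p = 5.89e-08). PDLIM2, a PDZ-LIM protein of the actin cytoskeleton, changed by -1.59 ± 0.21, adjusted p = 1.42e-05, and LIMD1, a LIM adaptor of the zyxin family, by -0.88 ± 0.11, adjusted p = 1.02e-05. In the focal adhesion core 8 of 25 tested members rose and 6 fell (median log2 change -0.17), with 0 rises and 4 falls of at least 2-fold. FERMT2 encodes kindlin-2, which activates integrins together with talin. It had 27.4 to 65.8 CPM (median 30.6) in siHic5siNS libraries, against 195 to 333 CPM (median 245) in siNSsiNS libraries, so that the highest siHic5siNS library stood well below the lowest siNSsiNS library (-2.80 ± 0.24, adjusted p = 3.87e-07). KANK2, an adaptor that binds talin, changed by -1.22 ± 0.14, adjusted p = 4.66e-06, and ENAH, an Ena/VASP protein that promotes actin filament growth, by -1.51 ± 0.18, adjusted p = 7.24e-06. TLN2, the second talin gene, rose by 0.85 ± 0.13, adjusted p = 4.86e-05.

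Integrin subunits were called more often upward: 8 of 15 tested members rose (53.3%, against 26.5% of all genes) and 4 fell (26.7%, against 29.0%). The median log2 change was 0.41, and 5 rises and 2 falls were at least 2-fold. ITGA5, the alpha chain of the fibronectin receptor, had 438 to 1315 CPM (median 679) in siHic5siNS libraries, against 212 to 251 CPM (median 224) in siNSsiNS libraries and changed by 1.81 ± 0.23, adjusted p = 1.04e-05. Its partner ITGB1, the shared beta-1 chain, had 3843 to 4964 CPM (median 4188) in siHic5siNS libraries, against 1979.6 to 2463 CPM (median 2299) in siNSsiNS libraries and changed by 0.94 ± 0.14, adjusted p = 5.71e-05. ITGA10, an alpha chain that binds collagen, rose by 1.40 ± 0.24, adjusted p = 1.55e-04, and ITGA4, the alpha chain of VLA-4, fell, with a change of -1.19 ± 0.19, adjusted p = 8.97e-05. Of smooth muscle type contractile genes 7 of 16 tested members rose (43.8%) and 3 fell (18.8%), with a median log2 change of 0.33. TPM4, a tropomyosin that lines actin filaments, had 557 to 725 CPM (median 602) in siHic5siNS libraries, against 46 to 129 CPM (median 58.2) in siNSsiNS libraries and changed by 3.21 ± 0.48, adjusted p = 5.13e-05. MYH9, the non-muscle myosin heavy chain, rose by 0.94 ± 0.16, adjusted p = 1.64e-04, and CNN3, the acidic calponin, by 0.83 ± 0.09, adjusted p = 3.47e-06. CNN2, another calponin, changed the opposite way by -1.59 ± 0.29, adjusted p = 2.91e-04.

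Genes driven by mechanical signals form the group of YAP and TEAD targets. Of its 11 tested members 2 rose (18.2%, against 26.5% of all genes) and 6 fell (54.5%, against 29.0%), with a median log2 change of -0.75. Among them DLC1, a tumour suppressor found at focal adhesions, had 13.4 to 31.4 CPM (median 20.9) in siHic5siNS libraries, against 71.4 to 119 CPM (median 104) in siNSsiNS libraries and changed by -2.16 ± 0.26, adjusted p = 7.00e-06. CRIM1, a BMP-binding membrane protein gene, changed by -1.67 ± 0.24, adjusted p = 3.45e-05, and AMOTL2, a YAP-binding angiomotin, by -1.76 ± 0.27, adjusted p = 5.81e-05, while AMOTL1, a further angiomotin, rose by 0.78 ± 0.17, adjusted p = 0.00114.

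Matrix genes rose more often than they fell. Of collagens and matrix glycoproteins 17 of 29 tested members rose (58.6%, against 26.5% of all genes) and 6 fell (20.7%, against 29.0%). The median log2 change was 0.65, and 14 of the rises were at least 2-fold. FN1, fibronectin, had 3797 to 7118 CPM (median 5907) in siHic5siNS libraries, against 586 to 1138 CPM (median 952) in siNSsiNS libraries and changed by 2.69 ± 0.34, adjusted p = 9.58e-06. COL4A1, a basement membrane collagen chain, had 1338 to 1683 CPM (median 1416) in siHic5siNS libraries, against 103 to 359.7 CPM (median 203) in siNSsiNS libraries and changed by 2.64 ± 0.36, adjusted p = 2.07e-05. TNC, the matricellular protein tenascin-C, had 499 to 699 CPM (median 557) in siHic5siNS libraries, against 90.7 to 132 CPM (median 115) in siNSsiNS libraries and changed by 2.36 ± 0.25, adjusted p = 2.71e-06. LOXL2, a collagen-crosslinking oxidase, went against them with a median of 36.2 CPM in siHic5siNS libraries, against 173 CPM in siNSsiNS libraries (-2.36 ± 0.18, adjusted p = 1.91e-07). Of matrix proteases and their inhibitors 10 of 23 tested members rose and 3 fell (median log2 change 0.23). The gelatinase gene MMP2 rose by 1.64 ± 0.19, adjusted p = 6.08e-06, and its membrane-bound activator MMP14 by 1.40 ± 0.13, adjusted p = 8.09e-07. MMP10, stromelysin 2, rose by 2.43 ± 0.50, adjusted p = 6.81e-04 from low levels (a median of 8.76 CPM in siHic5siNS libraries, against 1.68 CPM in siNSsiNS libraries). ADAMTS12, a secreted metalloprotease, fell with 21.2 to 43.8 CPM (median 31.2) in siHic5siNS libraries, against 164 to 219 CPM (median 188) in siNSsiNS libraries (-2.62 ± 0.15, adjusted p = 2.19e-08). No overlap between conditions was seen for any of these 8 genes. They were named for the smallest p in their lists, and 48.6% of all tested genes do not overlap either.

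In the TGF-beta group, the pathway that induces TGFB1I1, 11 of 29 tested members rose and 9 fell (median log2 change -0.09). These were 37.9% and 31.0% of the members, against 26.5% and 29.0% of all genes. LTBP1, which stores latent TGF-beta in the matrix, had 152 to 316 CPM (median 246) in siHic5siNS libraries, against 27 to 37.2 CPM (median 34) in siNSsiNS libraries and changed by 2.87 ± 0.23, adjusted p = 2.78e-07. SKI, a repressor of SMAD transcription, changed by 1.82 ± 0.18, adjusted p = 1.53e-06. TGFBR3, the coreceptor betaglycan, changed by -1.91 ± 0.18, adjusted p = 8.71e-07, and the ligand gene BMP4 by -2.34 ± 0.33, adjusted p = 2.98e-05. Of osteoblast genes 9 of 15 listed are in the table, of which 3 rose (33.3%) and 2 fell (22.2%), near the shares of all genes. The median change of the 9 was 0.39, and 1 fall was left without siNSsiNS replicate 1. BMP2, a bone-inducing ligand, rose by 1.52 ± 0.29, adjusted p = 4.04e-04. TNFRSF11B, the osteoclast inhibitor osteoprotegerin, rose by 1.53 ± 0.30, adjusted p = 5.10e-04, though its 2 sets of libraries overlapped. The osteoblast transcription factor gene RUNX2 also overlapped and changed by -0.74 ± 0.22, adjusted p = 0.00862, a call that was lost without siNSsiNS replicate 1 (adjusted p = 0.0508).

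Among striated muscle genes more members fell than the 29.0% of all genes, MYL4 being one of them. Of 26 listed genes 17 are in the table and 15 were tested: 10 fell, 8 of them by at least 2-fold, and 1 rose (median -1.21). With the stricter filter of a CPM above 5, 5 falls were left. MYL1, the fast skeletal myosin light chain, had 21 counts over the siHic5siNS libraries, against 729 counts over the siNSsiNS libraries (-5.10 ± 0.57, adjusted p = 3.83e-06). TNNI1, the slow skeletal troponin I, had 53 counts in siHic5siNS, against 434 counts in siNSsiNS (-3.08 ± 0.47, adjusted p = 5.37e-05). MYH3, the embryonic myosin heavy chain, had 1.68 to 2.94 CPM (median 2.25) in siHic5siNS libraries, against 5.1 to 7.21 CPM (median 6.32) in siNSsiNS libraries (-1.47 ± 0.19, adjusted p = 1.26e-05). The gene that rose was CDH15, the muscle cadherin, which is taken up with the dex libraries further on. It lost its call without siHic5siNS replicate 1, siNSsiNS replicate 1 or siNSsiNS replicate 2, with a hormone term over the 12 libraries, and with limma on log2(CPM + 0.5).

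Genes of cell division were lower as a group. All 22 mitotic genes tested fell, 17 of them by at least 2-fold (median -1.47; 20 falls without siHic5siNS replicate 2, and as many without siNSsiNS replicate 3), and 20 of 24 DNA replication genes fell, 10 by at least 2-fold, with no rise (median -0.92; 17 falls without siHic5siNS replicate 2). KIF20A, a kinesin of the cytokinetic midzone, had 15.1 to 26.6 CPM (median 19) in siHic5siNS libraries, against 109.7 to 134 CPM (median 116) in siNSsiNS libraries and changed by -2.57 ± 0.22, adjusted p = 4.51e-07. CCNB1, cyclin B1, which drives entry into mitosis, had 65.6 to 97.4 CPM (median 76.6) in siHic5siNS libraries, against 259.7 to 288 CPM (median 279) in siNSsiNS libraries and changed by -1.82 ± 0.16, adjusted p = 5.57e-07. BUB1, a spindle checkpoint kinase, had a median of 46.6 CPM in siHic5siNS libraries, against 129 CPM in siNSsiNS libraries and changed by -1.49 ± 0.15, adjusted p = 1.47e-06. Among replication genes GINS1, a subunit of the replicative helicase complex, had 7.73 to 16.4 CPM (median 14.2) in siHic5siNS libraries, against 41.6 to 49.2 CPM (median 44.5) in siNSsiNS libraries and changed by -1.82 ± 0.22, adjusted p = 6.08e-06. MCM5, a helicase subunit, changed by -1.21 ± 0.17, adjusted p = 3.26e-05, CDT1, which licenses origins, by -1.05 ± 0.15, adjusted p = 3.63e-05, and PCNA, the sliding clamp, by -0.85 ± 0.12, adjusted p = 2.64e-05. None of these 7 genes, again named for a small p, overlapped between conditions. The part of siHic5siNS replicate 2, the lowest in these lists, was not tested beyond leaving it out.

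**Figure D2:**
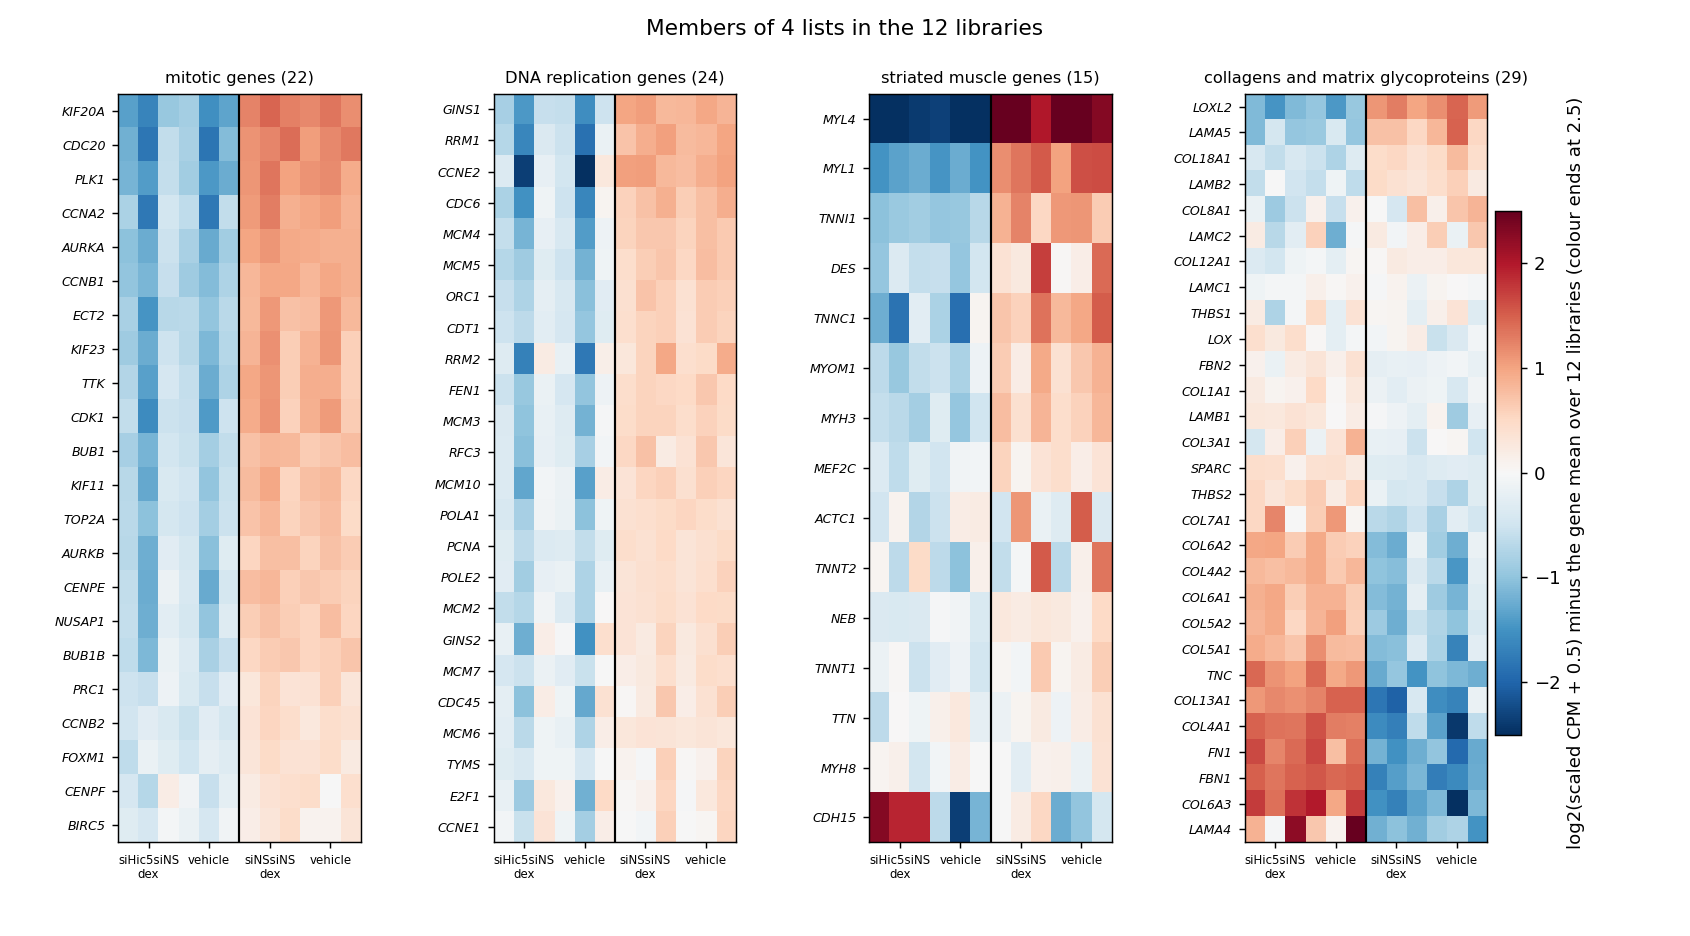
Tested members of the mitotic (22), replication (24), striated muscle (15) and matrix (29) lists in the 12 libraries; colour is log2(scaled CPM + 0.5) minus the mean of the gene, from blue (lower) to red (higher), with genes ordered by their change and columns by condition, hormone and replicate. Within each condition the dex libraries stand left of the vehicle libraries. The 6 siHic5siNS columns at the left are mostly blue for mitotic and replication genes and red for the rising matrix genes, and the 6 siNSsiNS columns at the right mostly the reverse.

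Mitotic promoters are known for CHR elements (TTTGAA) and CCAAT boxes, and replication promoters for E2F elements (TTTNNCGC). In the 250 bases before each RefSeq gene start (GRCh38.p14), read on both strands, TTTGAA stood in 10 of 18 mitotic and 1 of 21 replication promoters, against 12.3% of tested genes' promoters and 16.1% of all promoters. CCAAT stood in 16 of 18 mitotic and 14 of 21 replication promoters, against 40.8% of tested genes' and 37.0% of all promoters. TTTNNCGC stood in 2 of 18 mitotic and 11 of 21 replication promoters, against 10.8% of tested genes' and 7.15% of all promoters. A promoter can hold several of these motifs, and a match is a match of letters only. The 5 promoters that follow were picked because they hold motifs of their group, so they do not stand for all members. The 150 bases before the start of 5 genes that fell show the arrangement, with every match of the 3 motifs on either strand in capitals: TTTGAA, and CCAAT or its reverse complement ATTGG, in CDC20 (chr1:43358831-43358980, plus strand), PLK1 (chr16:23678739-23678888, plus strand) and KIF23 (chr15:69414199-69414348, plus strand), and GCGGGAAA, the reverse complement of a TTTNNCGC match, in CDT1 (chr16:88803639-88803788, plus strand) and PCNA (chr20:5126623-5126772, minus strand), the last of which also holds CCAAT and ATTGG.
CDC20: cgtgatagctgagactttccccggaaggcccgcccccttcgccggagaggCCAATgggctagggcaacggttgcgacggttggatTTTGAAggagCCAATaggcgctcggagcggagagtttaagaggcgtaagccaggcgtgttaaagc
PLK1: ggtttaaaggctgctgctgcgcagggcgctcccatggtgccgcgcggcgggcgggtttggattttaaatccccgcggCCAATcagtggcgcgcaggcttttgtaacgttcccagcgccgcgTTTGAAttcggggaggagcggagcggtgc
KIF23: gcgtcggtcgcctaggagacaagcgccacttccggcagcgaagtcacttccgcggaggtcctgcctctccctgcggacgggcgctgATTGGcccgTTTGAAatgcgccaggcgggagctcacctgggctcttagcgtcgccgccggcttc
CDT1: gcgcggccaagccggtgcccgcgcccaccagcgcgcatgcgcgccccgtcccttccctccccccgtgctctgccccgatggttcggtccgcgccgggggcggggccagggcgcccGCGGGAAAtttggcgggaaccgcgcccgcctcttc
PCNA: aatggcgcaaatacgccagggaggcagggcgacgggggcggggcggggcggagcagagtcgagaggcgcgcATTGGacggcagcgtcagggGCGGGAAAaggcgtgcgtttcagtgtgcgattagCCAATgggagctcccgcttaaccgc

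Stress and lipid genes were among the groups with more rises than the 26.5% of all genes. Of ATF4 and unfolded protein response genes 12 of 21 tested members rose and 3 fell (median log2 change 0.76). HERPUD1, a component of degradation at the endoplasmic reticulum, had 187 to 292 CPM (median 235) in siHic5siNS libraries, against 54.5 to 70.2 CPM (median 60.9) in siNSsiNS libraries and changed by 2.00 ± 0.11, adjusted p = 1.37e-08. DDIT3, the transcription factor CHOP, had a median of 22.4 CPM in siHic5siNS libraries, against 5.59 CPM in siNSsiNS libraries and changed by 2.09 ± 0.33, adjusted p = 7.94e-05. TRIB3, a pseudokinase induced by CHOP and ATF4, rose by 1.79 ± 0.24, adjusted p = 1.61e-05, and ATF4 itself by 0.82 ± 0.14, adjusted p = 1.27e-04. Among cholesterol and lipid synthesis genes 14 of 23 tested members rose and 1 fell (median log2 change 0.76), with 9 rises and 2 falls without siHic5siNS replicate 3 and 9 rises without siNSsiNS replicate 1. INSIG1, which retains SREBP in the endoplasmic reticulum, had 198 to 355 CPM (median 289) in siHic5siNS libraries, against 42.8 to 65.8 CPM (median 53.1) in siNSsiNS libraries and changed by 2.35 ± 0.36, adjusted p = 5.43e-05. SREBF2, the SREBP of cholesterol synthesis, rose by 0.84 ± 0.12, adjusted p = 3.55e-05, and HMGCS1, an early enzyme of the pathway, by 1.00 ± 0.24, adjusted p = 0.00233. The single fall was that of MSMO1, a sterol demethylase (-1.61 ± 0.27, adjusted p = 1.27e-04).

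Of NRF2 antioxidant genes, HMOX1 among them, 4 of 17 tested members rose and 3 fell (median log2 change 0.25), shares no higher than the 26.5% and 29.0% of all genes. FTH1, the ferritin heavy chain that stores iron, had 4793 to 10550.5 CPM (median 5534) in siHic5siNS libraries, against 1826 to 2072 CPM (median 2011) in siNSsiNS libraries and changed by 1.77 ± 0.25, adjusted p = 2.68e-05. GCLM, a subunit of the glutathione synthesis enzyme, rose by 0.88 ± 0.14, adjusted p = 8.67e-05, whereas TALDO1, of the pentose phosphate pathway, changed by -0.76 ± 0.17, adjusted p = 0.0014. Of p53 targets 6 of 19 tested members rose (31.6%, against 26.5% of all genes) and 3 fell (15.8%, against 29.0%), with a median log2 change of 0.34. BTG2, an antiproliferative gene, had 129 to 604 CPM (median 207) in siHic5siNS libraries, against 48.8 to 82.4 CPM (median 51.6) in siNSsiNS libraries and changed by 2.26 ± 0.35, adjusted p = 7.12e-05, or 1.64 without siHic5siNS replicate 2. GDF15, a stress-induced cytokine, rose by 2.82 ± 0.46, adjusted p = 1.02e-04, or 2.23 without the same replicate. The DNA repair gene XPC rose by 1.39 ± 0.19, adjusted p = 1.69e-05 and BBC3, the proapoptotic PUMA, by 1.40 ± 0.26, adjusted p = 3.61e-04.

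Interferon-stimulated genes, which double-stranded RNA can induce, fell more often than they rose. Of 18 tested members 4 rose (22.2%, against 26.5% of all genes) and 10 fell (55.6%, against 29.0%), with a median log2 change of -0.83. There were 2 rises without siHic5siNS replicate 2 or without siNSsiNS replicate 2. OAS3, an enzyme activated by double-stranded RNA, had 6.89 to 10.9 CPM (median 8.66) in siHic5siNS libraries, against 29.1 to 42.7 CPM (median 35.1) in siNSsiNS libraries and changed by -2.00 ± 0.21, adjusted p = 1.84e-06. IFIT1, which binds foreign RNA, changed by -1.86 ± 0.23, adjusted p = 9.81e-06, and IFI6 by -1.90 ± 0.22, adjusted p = 4.75e-06. In the hypoxia and angiogenesis group 5 of 19 tested members rose (26.3%) and 8 fell (42.1%), with a median log2 change of -0.03. Each of the 8 falls was at least 2-fold, and with the filter of a CPM above 5, 5 falls were left. LDHA, lactate dehydrogenase A, had 504 to 774 CPM (median 734) in siHic5siNS libraries, against 1654 to 2146 CPM (median 1778) in siNSsiNS libraries and changed by -1.43 ± 0.21, adjusted p = 3.54e-05. ANGPT1, the ligand of the TIE2 receptor, changed by -3.04 ± 0.25, adjusted p = 2.91e-07, and CA12, a membrane carbonic anhydrase, by -1.99 ± 0.29, adjusted p = 3.57e-05, while PDK1, which restrains pyruvate oxidation, rose by 1.24 ± 0.15, adjusted p = 7.49e-06. WNT ligands and feedback genes had 4 rises (23.5%) and 6 falls (35.3%) among 17 (median -0.26), near the 26.5% and 29.0% of all genes. The secreted WNT inhibitor NOTUM rose by 1.71 ± 0.30, adjusted p = 1.72e-04 and the feedback gene NKD1 by 1.39 ± 0.20, adjusted p = 4.18e-05. The R-spondin receptor LGR4 changed by -1.50 ± 0.24, adjusted p = 9.51e-05 and the ligand WNT7B by -1.64 ± 0.25, adjusted p = 4.80e-05.

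**Figure D3:**
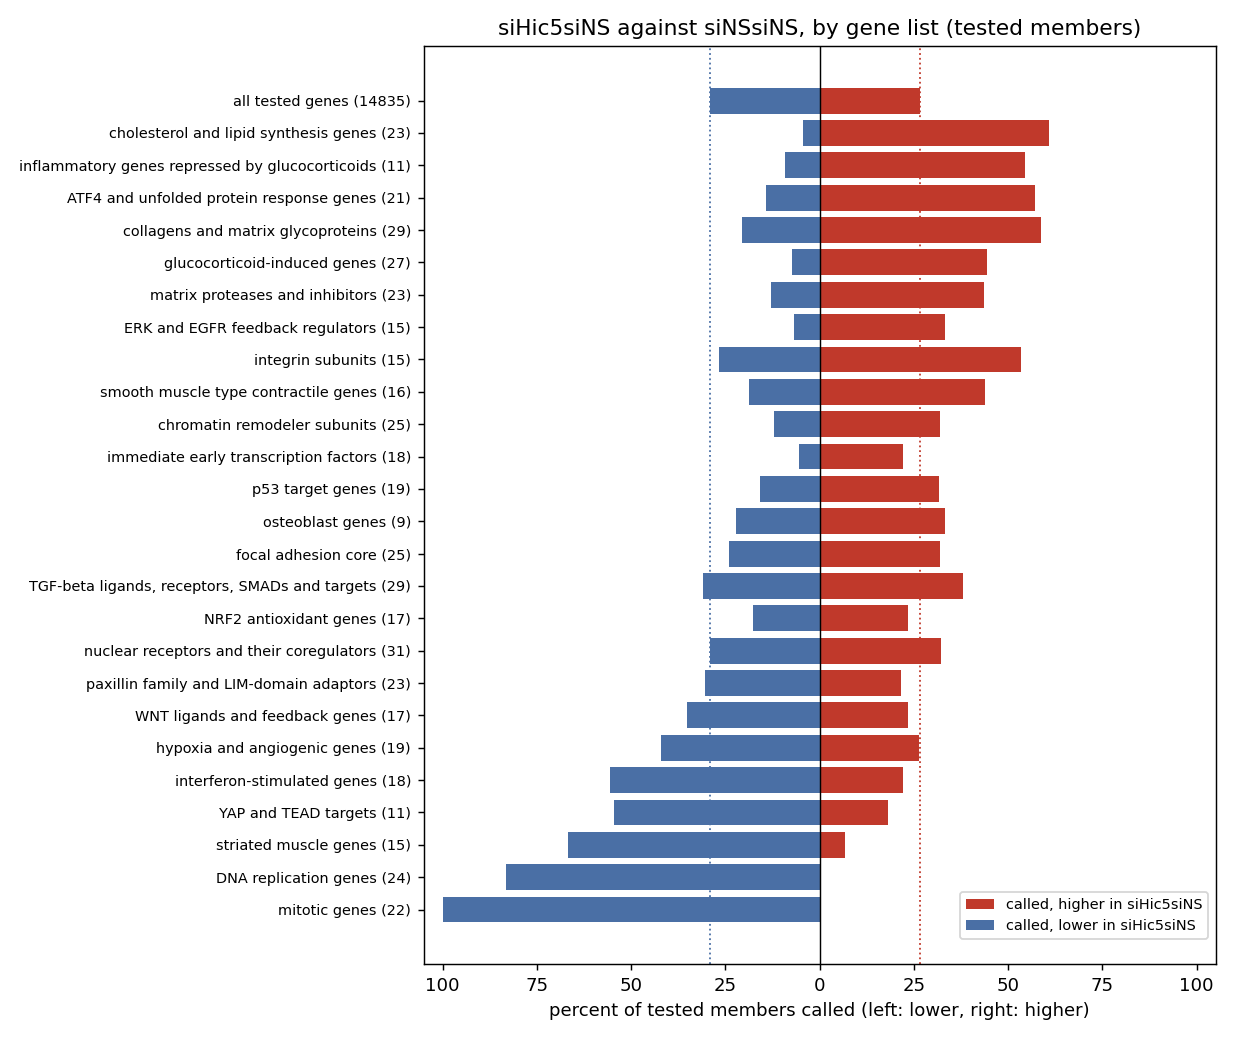
Percent of tested members called in siHic5siNS against siNSsiNS, by gene list (number tested in brackets) and all tested genes at the top; bars to the right are members higher in siHic5siNS, bars to the left members lower, and dotted lines mark the 26.5% and 29.0% of all tested genes. Ordered by the share higher minus the share lower, the lists run from cholesterol and lipid synthesis, with 60.9% higher, to the mitotic genes, all of them lower.

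Groups tied to GR were examined over vehicle and dex together, so that a gene's own dex response widens both sets of libraries. Of glucocorticoid-induced genes 12 of 27 tested members rose (44.4%, against 26.5% of all genes) and 2 fell (7.41%, against 29.0%), with a median log2 change of 0.53. There were 7 rises without siHic5siNS replicate 2 and 1 fall without siHic5siNS replicate 3 or siNSsiNS replicate 1 or 2. With a replicate block, with a hormone term over the 12 libraries or with sums of the 2 conditions only, 4 members fell. MT2A, a metallothionein, had 1287 to 2723 CPM (median 1841) in siHic5siNS libraries, against 406 to 1015 CPM (median 797) in siNSsiNS libraries and changed by 1.31 ± 0.17, adjusted p = 1.19e-05. FKBP5, an hsp90 cochaperone of GR, had 130.3 to 420.1 CPM (median 249) in siHic5siNS libraries, against 45.1 to 181 CPM (median 89.3) in siNSsiNS libraries; the sets overlapped and the change was 1.35 ± 0.26, adjusted p = 4.20e-04. SLC19A2, a thiamine transporter gene, also overlapped and changed by 0.81 ± 0.14, adjusted p = 1.46e-04. SCNN1A, a subunit of the epithelial sodium channel ENaC, fell, with a change of -1.62 ± 0.22, adjusted p = 2.34e-05. Of inflammatory genes that glucocorticoids repress 6 of 11 tested members rose (54.5%) and 1 fell (9.09%), with a median log2 change of 0.89. But 2 rises were left without siHic5siNS replicate 2 or siNSsiNS replicate 1 or 3, and 3 without siHic5siNS replicate 3. Taken apart, 2 members rose in dex (median 0.69) and 6 in vehicle (median 1.09); the difference between these estimates was called for no member, with or without the replicate block. PTGS2, cyclooxygenase 2, had 2.42 to 8.27 CPM (median 4.06) in siHic5siNS libraries, against 0.847 to 2.27 CPM (median 0.985) in siNSsiNS libraries and changed by 1.87 ± 0.38, adjusted p = 6.19e-04. The cytokine gene IL1A rose by 2.27 ± 0.60, adjusted p = 0.00431, or 1.37 without siHic5siNS replicate 2, and the chemokine gene CXCL3 by 1.64 ± 0.56, adjusted p = 0.0206, a call lost without that replicate (0.90, adjusted p = 0.185) and without siNSsiNS replicate 1 or 3. LIF, a cytokine of the interleukin 6 family, changed by -0.96 ± 0.24, adjusted p = 0.00278.

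Immediate early transcription factors had 4 rises (22.2%, against 26.5% of all genes) and 1 fall (5.56%, against 29.0%) among 18 tested (median 0.72). The number of rises was 2 without siHic5siNS replicate 2, siNSsiNS replicate 1 or siNSsiNS replicate 3 (the last of which gave 2 falls). JUND, an AP-1 subunit, had 171 to 386 CPM (median 206) in siHic5siNS libraries, against 56 to 87.6 CPM (median 61.9) in siNSsiNS libraries and changed by 1.88 ± 0.24, adjusted p = 1.05e-05. KLF6, a zinc finger factor, rose by 1.82 ± 0.31, adjusted p = 1.27e-04, and MYC, the growth regulator, changed by -0.60 ± 0.11, adjusted p = 2.78e-04. JUN overlapped and rose by 0.85 ± 0.31, adjusted p = 0.0288, a call lost without siHic5siNS replicate 2 or siNSsiNS replicate 1 or 3. Of ERK and EGFR feedback regulators 5 of 15 tested members rose (33.3%) and 1 fell (6.67%), with a median log2 change of 0.56. The fall was lost without siHic5siNS replicate 2 or siNSsiNS replicate 1 or 2. The EGFR ligand genes TGFA and EREG rose, by 1.49 ± 0.21, adjusted p = 2.43e-05 and by 2.67 ± 0.62, adjusted p = 0.0018, as did PHLDA1, an ERK-induced gene, by 1.64 ± 0.36, adjusted p = 0.00114. EGFR, the receptor, had 26.1 to 44.9 CPM (median 34.3) in siHic5siNS libraries, against 16.8 to 26.7 CPM (median 21.2) in siNSsiNS libraries and changed by 0.73 ± 0.15, adjusted p = 5.79e-04, with overlap.

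Nuclear receptors and coregulators were called at about the 55.5% of all genes: 10 of 31 tested members rose and 9 fell (median log2 change -0.18), with 6 rises without siNSsiNS replicate 3. The lipid-sensing receptors PPARD and PPARA rose by 1.03 ± 0.11, adjusted p = 2.16e-06 and by 0.95 ± 0.13, adjusted p = 1.94e-05. MED1, the Mediator subunit that contacts nuclear receptors, had 81.2 to 108 CPM (median 94.7) in siHic5siNS libraries, against 158 to 184 CPM (median 175) in siNSsiNS libraries and changed by -0.88 ± 0.11, adjusted p = 8.98e-06. RXRA, the partner of many receptors, changed by -0.70 ± 0.10, adjusted p = 4.74e-05. Among chromatin remodeler subunits 8 of 25 tested members rose and 3 fell (median log2 change 0.01), with 5 falls without siNSsiNS replicate 3. The SWI/SNF subunit genes SMARCD1 and SMARCC1 rose by 1.03 ± 0.11, adjusted p = 2.78e-06 and by 0.95 ± 0.10, adjusted p = 3.15e-06, and ARID1A, a DNA-binding subunit of the same complex, changed by -0.94 ± 0.16, adjusted p = 1.20e-04. SMARCA1, an ISWI ATPase gene, rose by 0.54 ± 0.09, adjusted p = 1.34e-04.

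Set side by side, the dex and the vehicle estimates of the siRNA effect were close. In a fit of all 36 libraries, 8143 of 15179 genes were called in dex (53.6%; 3824 higher and 4319 lower in siHic5siNS) and 8066 in vehicle (53.1%; 3940 higher and 4126 lower). Which direction had more calls depended on the scaling: with TMM 4199 were higher and 4001 lower in dex and 4072 higher and 4042 lower in vehicle, and without scaling 3415 were higher and 4736 lower in dex. Of these, 7194 genes were called in both with the same direction, which is 88.3% of the dex calls and 89.2% of the vehicle calls, and none in opposite directions. The 2 contrasts share no library, but the dex and vehicle libraries of a replicate deviate together and are not independent. TGFB1I1 changed by -2.33 ± 0.24 in dex and -2.01 ± 0.24 in vehicle, HMOX1 by 5.05 ± 0.51 in dex and 4.98 ± 0.51 in vehicle, and FN1 by 2.73 ± 0.36 in dex and 2.65 ± 0.36 in vehicle. The median mitotic gene changed by -1.55 in dex and -1.37 in vehicle, and the median matrix gene by 0.67 in dex and 0.64 in vehicle. The difference of the dex from the vehicle estimate was called for 0 genes in edgeR's fit without a replicate block (126 genes at an unadjusted p under 0.05), and for 0 by DESeq2 (129 genes at an unadjusted p under 0.05). In simulated data edgeR's fit without the block found 43.3% of 2-fold differences, and smaller ones can be missed. The simulated libraries did not deviate together as the real ones do, so this share is not the power in these data. With the dex and vehicle libraries of a number kept together as a replicate block, the difference was called for 28 genes, 0.184% of those tested (11 without siHic5siNS replicate 2, and 8, 7 and 9 without siNSsiNS replicates 1, 2 and 3). The dex estimate was the higher one in 20 (0.132%) and the lower one in 8 (0.0527%).

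Among those 28 genes the difference took several forms. CDH15, the muscle cadherin, had 19.6, 14.8 and 14.8 CPM in siHic5siNS dex libraries and 2.1, 0.302 and 1.33 CPM in siHic5siNS vehicle libraries, against 3.54, 4.24 and 5.32 CPM in siNSsiNS dex libraries and 1.24, 1.57 and 2.51 CPM in siNSsiNS vehicle libraries. The siHic5siNS dex libraries were above all others, while the vehicle libraries of the conditions overlapped, and the difference was 2.46 ± 0.44, adjusted p = 0.0254. RASGRP2, an exchange factor for the GTPase RAP1, had 9.78, 7.9 and 9.23 CPM in siHic5siNS dex libraries and 0.647, 0.302 and 0.922 CPM in siHic5siNS vehicle libraries, against 8.86, 6.87 and 6.5 CPM in siNSsiNS dex libraries and 3.14, 2.6 and 1.72 CPM in siNSsiNS vehicle libraries. Here the vehicle libraries of siHic5siNS were the lowest set and the dex libraries of the conditions overlapped (2.23 ± 0.40, adjusted p = 0.0251). SCNN1A had 27.4, 26.4 and 33.8 CPM in siHic5siNS dex libraries and 19.4, 22.3 and 26 CPM in siHic5siNS vehicle libraries, against 135, 111 and 104 CPM in siNSsiNS dex libraries and 40.2, 43.6 and 34 CPM in siNSsiNS vehicle libraries. Its highest values were those of the siNSsiNS dex libraries (-1.20 ± 0.16, adjusted p = 0.00348). GPR137B, a lysosomal membrane protein gene, had 99.9, 126 and 101 CPM in siHic5siNS dex libraries and 144, 178 and 142 CPM in siHic5siNS vehicle libraries, against 38.9, 37.5 and 30.6 CPM in siNSsiNS dex libraries and 37.9, 31.1 and 29.9 CPM in siNSsiNS vehicle libraries. It was higher in siHic5siNS under both treatments, by 1.61 in dex and 2.23 in vehicle (-0.61 ± 0.07, adjusted p = 0.00247 for the difference). The other named differences were 2.09 ± 0.39, adjusted p = 0.0309 for RP1L1, 1.33 ± 0.22, adjusted p = 0.0165 for the lysophospholipase gene PNPLA7 and 1.00 ± 0.16, adjusted p = 0.00989 for the chloride channel gene ANO2. Downward they were -1.35 ± 0.24, adjusted p = 0.0251 for UNC80, part of a sodium leak channel, -1.11 ± 0.20, adjusted p = 0.0251 for TG, thyroglobulin, and -0.70 ± 0.11, adjusted p = 0.00989 for IL1RAP, a subunit of the interleukin 1 receptor. Of these 10 genes, 8 lost the call when 1 of the 6 replicates was left out.

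**Figure D4:**
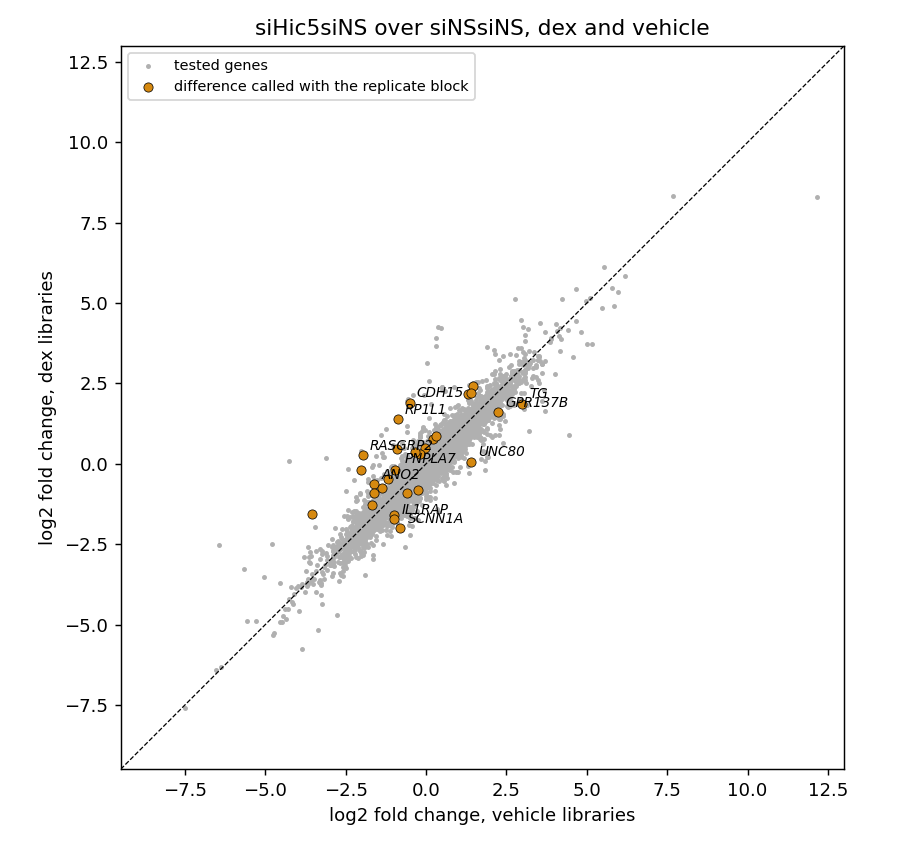
Log2 fold change of siHic5siNS over siNSsiNS in dex libraries (vertical) against vehicle libraries (horizontal) for 15179 tested genes (grey), with the identity line dashed. Orange points are the 28 genes whose difference was called with the replicate block, 10 of them named. Most points lie along the line, which is to say that the dex and vehicle estimates of a gene are close.

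Hic-5 siRNA was also given beside siRNA against BRM or CHD9, in libraries that share none with those above. TGFB1I1 changed by -2.41 ± 0.22, adjusted p = 3.35e-05 in siBRMsiHic5 against siBRMsiNS and by -2.38 ± 0.22, adjusted p = 9.29e-06 in siCHD9siHic5 against siCHD9siNS, close to the -2.17 of siHic5siNS against siNSsiNS. CHD9 itself was higher in the libraries labelled siCHD9siHic5 than in those labelled siCHD9siNS (0.83 ± 0.16, adjusted p = 0.0013), so that these conditions differ in CHD9 as well. It averaged 121 ± 17.7 CPM in siCHD9siHic5 and 68.6 ± 15.1 CPM in siCHD9siNS libraries (SD, n = 6 each), where siNSsiNS had a median of 91.3 CPM. SMARCA2 averaged 8.29 ± 1.31 CPM in siBRMsiHic5 and 9.21 ± 1.04 CPM in siBRMsiNS libraries, against a median of 32.9 CPM in siNSsiNS. With BRM siRNA 2855 genes were called (19.2%), of which 1077 were higher (7.26%) and 1778 lower, or 1425 and 1543 with TMM scaling. With a replicate block 1244 were called (8.78%), 437 higher (3.08%) and 807 lower (5.69%). With CHD9 siRNA 5151 genes were called (34.7%), 2067 higher (13.9%) and 3084 lower (20.8%), or 2503 and 2655 with TMM scaling. With a block 8091 were called (58.1%), 3538 higher (25.4%) and 4553 lower (32.7%). Leaving out siBRMsiNS replicate 3 gave 4933 calls with BRM siRNA, and leaving out siBRMsiNS replicate 1, siBRMsiHic5 replicate 1, siBRMsiNS replicate 2 or siBRMsiHic5 replicate 3 gave 1424, 1590, 1901 and 1903.

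Of the 3927 genes higher in siHic5siNS, 818 (20.8%) were also higher with Hic-5 siRNA beside BRM siRNA and 65 were lower; with the block these were 344 and 19. They made up 76.0% of that contrast's upward calls. Beside CHD9 siRNA 1343 (34.2%) were higher and 125 lower (2019 and 287 with the block), or 65.0% of its upward calls. Of the 4307 lower genes 1296 (30.1%) were lower beside BRM siRNA and 18 higher (654 and 6 with the block), 72.9% of its downward calls. Beside CHD9 siRNA 2040 (47.4%) were lower and 103 higher (2591 and 232 with the block), 66.1% of its downward calls. The median log2 changes beside BRM and CHD9 siRNA were 0.26 and 0.29 for the higher ones, -0.33 and -0.42 for the lower ones. For comparison, 26.5% of all tested genes were higher and 29.0% lower in siHic5siNS. Beside BRM siRNA 7.26% of all genes were higher and 1778 of 14835 lower (3.08% and 5.69% with the block). Beside CHD9 siRNA 13.9% were higher and 20.8% lower (25.4% and 32.7% with the block).

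Individual genes followed different courses across the backgrounds. HMOX1 rose by 2.58 ± 0.41, adjusted p = 0.00111 beside BRM siRNA and by 3.51 ± 0.43, adjusted p = 5.77e-05 beside CHD9 siRNA, and MMP3 by 3.72 ± 0.88, adjusted p = 0.00952 and by 2.85 ± 0.86, adjusted p = 0.0174. MYL4 changed by -3.58 ± 0.52, adjusted p = 6.17e-04 and by -6.13 ± 0.62, adjusted p = 1.77e-05, and FOXS1 by -2.42 ± 0.56, adjusted p = 0.0081 and by -3.61 ± 0.57, adjusted p = 2.98e-04. EDN2 had -1.07 ± 0.58, adjusted p = 0.202 beside BRM siRNA, not called without the block (adjusted p = 0.0361 with it), and -4.06 ± 0.67, adjusted p = 4.00e-04 beside CHD9 siRNA. ARSG had -0.22 ± 0.35, adjusted p = 0.689 beside BRM siRNA and -0.20 ± 0.36, adjusted p = 0.697 beside CHD9 siRNA, where siHic5siNS against siNSsiNS gave 3.44. ZDHHC22, with 0.22 ± 0.22, adjusted p = 0.496 and 0.21 ± 0.21, adjusted p = 0.472, did not pass the test in either. Some genes went the other way: NOTUM changed by -1.01 ± 0.30, adjusted p = 0.0263 beside BRM siRNA (adjusted p = 0.155 with the block) and by -1.57 ± 0.31, adjusted p = 0.00133 beside CHD9 siRNA, NKD1 by -0.92 ± 0.20, adjusted p = 0.00673 and by -0.83 ± 0.21, adjusted p = 0.00587, TNFRSF11B by -1.42 ± 0.30, adjusted p = 0.00218 and MMP10 by -1.47 ± 0.50, adjusted p = 0.0308 beside CHD9 siRNA, and MYC by 0.62 ± 0.11, adjusted p = 0.002 beside BRM siRNA. In all, 16 of the 24 genes with the largest changes were called in the same direction beside BRM siRNA and 14 beside CHD9 siRNA (10 and 19 with the block). The same sign was seen in 21 and 23. Without the block, 20.8% of all genes higher in siHic5siNS and 30.1% of the lower ones were called likewise beside BRM siRNA. Beside CHD9 siRNA these shares were 34.2% and 47.4%. The share of all genes with the same sign was not counted. Of 22 mitotic genes 3 fell beside BRM siRNA without the block, where 1778 of all 14835 genes fell, a similar share. With the block 5 of the 22 mitotic genes fell, a higher share than the 5.69% of all genes. Beside CHD9 siRNA 14 fell and 1 rose (19 and 1 with the block), against 20.8% and 13.9% of all genes (32.7% and 25.4% with the block). Of 29 matrix genes 1 rose and 5 fell beside BRM siRNA (0 and 5 with the block), and 7 rose and 5 fell beside CHD9 siRNA (13 and 8 with the block). Of 15 integrin subunits 1 rose and 3 fell beside BRM siRNA (0 and 2 with the block). Beside CHD9 siRNA 0 rose and 2 fell (3 and 4 with the block). For both lists the shares of all genes are these. Beside BRM siRNA 7.26% of all genes rose (3.08% with the block) and 1778 of 14835 fell (5.69% with the block). Beside CHD9 siRNA 13.9% rose and 20.8% fell (25.4% and 32.7% with the block). Whether the effect itself differs between backgrounds was not tested.

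**Figure D5:**
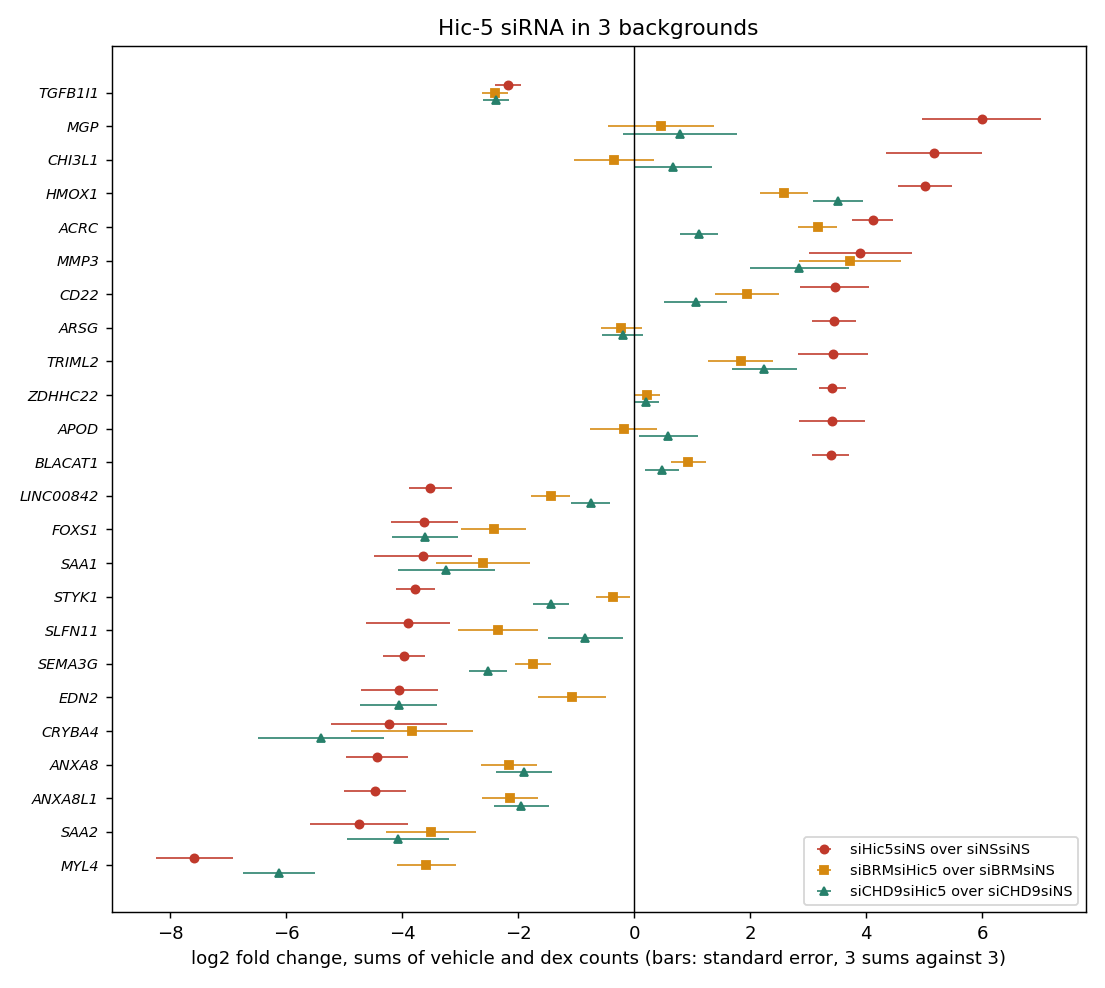
Log2 fold change with its standard error (3 sums against 3) for TGFB1I1 and 23 of the 24 genes with the largest changes (HTN1 is left out, having 3 counts in siNSsiNS), for Hic-5 siRNA without another target (red circles), beside BRM siRNA (orange squares) and beside CHD9 siRNA (green triangles). TGFB1I1 has nearly the same value in the 3 contrasts, whereas MGP, CHI3L1, ARSG, ZDHHC22 and APOD lie between -0.35 and 0.79 beside BRM and CHD9 siRNA.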

How the data were processed

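RNA-seq was done on 36 libraries, 12 of which are used here. Per the submitters' processing notes, reads were mapped with TopHat2 2.1.1 to GRCh38 and edgeR was used. Not given in the sources used here are the counter of reads, the annotation and whether strand was kept. The values the authors deposited are counts, whole numbers per gene for 15186 genes, although the table is named for normalised CPM. No column (0) belonged to another sample.

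Vehicle and dex counts of each siRNA condition and replicate number were summed, because these libraries deviate together (residual correlations of 0.404 to 0.715 in the 2 conditions). The 18 sums were fitted in edgeR 4.0.16 (R 4.3.3) with 6 siRNA means, upper-quartile factors and 12 residual degrees of freedom, on genes with a CPM above 1 in at least 3 sums, which left out 351. Vehicle, dex and difference estimates came from all 36 libraries with 12 group means. The fit of the difference with the replicate block has a term per pair. For siBRMsiHic5 and siCHD9siHic5 the replicate numbers pair the sums, from the data only (correlations of 0.291 to 0.694 and 0.494 to 0.496), so blocked counts are printed; those fits hold 6 sums each. The p values were Benjamini-Hochberg adjusted over all tested genes. Fits were tested on simulated data with changes of 1.5-, 2- and 4-fold. There all libraries were drawn independently and few genes were changed, unlike in the real data. The shares recovered are therefore not the power in these data. The main effect recovered 35.8%, 73.1% and 100% of these. The difference recovered 4.48%, 43.3% and 80.3% without the block, and 49.3%, 82.1% and 97% with it. These came from separate simulated sets, so they do not compare the fits. No 2 replicates were copies (lowest chi-square per degree of freedom 9.59). DESeq2 1.42.0, limma 3.58.1, TMM and no scaling, other filters, replicate blocks and each replicate left out were the alternatives.

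Named genes were TGFB1I1, NR3C1, CHD9 and SMARCA2; the 12 largest rises and 12 largest falls among called genes whose mean CPM was 5 or more, equal signs in vehicle and dex and no overlap between the conditions; up to 4 called members of each of 26 lists by smallest p; and up to 5 differences each way whose mean CPM was 1 or more. Promoter motifs were searched in RefSeq promoters. The groups, lists and tests were chosen with earlier results of these data known, and the 2-fold share was added after seeing the data. The results of 1 list and of some members of others are not reported here.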

Additional observations from a re-analysis of the deposited data

Results flagged for a closer look

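A difference between dex and vehicle cells in the effect of Hic-5 siRNA was called for 10 named genes in the fit with the replicate block of vehicle and dex libraries. The dex minus vehicle estimates were 2.46 for CDH15, 2.23 for RASGRP2, 2.09 for RP1L1, 1.33 for PNPLA7 and 1.00 for ANO2 upward. Downward they were -1.35 for UNC80, -1.20 for SCNN1A, -1.11 for TG, -0.70 for IL1RAP and -0.61 for GPR137B. Their adjusted p lay between 0.00247 and 0.0309 by edgeR with the block, and without it none of the 10 was called. Of the 10, SCNN1A and GPR137B kept the call when any 1 of the 6 replicates was left out, and 8 lost it at least once.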

How the results depend on the processing

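The 8234 calls of the siRNA effect became 7027 to 8608 under the scaling, filter, tool and sample alternatives and 7122 to 7661 when 1 replicate was left out, and 10268 when the 12 libraries were fitted one by one with a hormone term. By DESeq2 4339 were higher and 4269 lower. With a replicate block the calls were 8094. Residual correlations of the siHic5siNS and siNSsiNS sums of one number were 0.256, 0.191 and 0.0384. Whether libraries of one number share more than that number was not tested. Calls in dex ranged from 6982 to 7626 and in vehicle from 7007 to 7550 without 1 replicate, and were 9189 in dex and 9072 in vehicle with that block. The 28 differences called with the block within the siRNA condition were 32 with TMM and 26 without scaling, and 21, 11 and 26 without siHic5siNS replicates 1, 2 and 3 and 8, 7 and 9 without siNSsiNS replicates 1, 2 and 3. Beside BRM siRNA the calls were 1244 with a block and 1424 to 4933 without 1 replicate, against 2855. Beside CHD9 siRNA they were 8091 with a block and 3724 to 4615 without 1 replicate, against 5151. Of 1914 values of 128 named genes over 15 alternatives 0 reversed and 10 lost the call. These lay in 5 genes, each time with 1 replicate left out (NR3C1, CHD9, RUNX2, CXCL3 and JUN). Genes named only for a difference between dex and vehicle are not among the 128. CDH15 is such a gene. As given above, it lost its call without some replicates, with a hormone term and with limma. Of 780 list counts 730 stayed within 1.5 times. The block raised the rises among immediate early factors to 11, against 4, and among ERK and EGFR regulators to 8, against 5. On log2(CPM + 0.5), which shrinks low genes, MYL4 changed by -5.17 and MGP by 4.21.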
